A study of Mus musculus with 2 samples.

Results

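The promoters of long intergenic non-coding RNA (lincRNA) genes were examined in the open chromatin of primary mouse megakaryocytes. A promoter region was an open region found in both replicates that lay within 500 bp of an annotated lincRNA transcript start and more than 1 kb from every start of a protein-coding gene, on chromosomes 1 to 19. Of 67991 open regions shared by the replicates, 723 (1.06%) met this rule. They belonged to 669 lincRNA genes by the GENCODE annotation. RefSeq holds 394 of these by symbol and types 15 of them as protein coding, and the 708 regions without those 15 had a median peak height over background (fold enrichment) of 7.99, set beside 8.10 over all 723. Another 280 shared regions lay within 500 bp of a lincRNA start and also within 1 kb of a coding start. These were not counted, since such a region cannot be assigned to either gene. Kept among the 723 were 60 regions (8.30%) also within 1 kb of a start of another non-coding gene or pseudogene. The summit lay inside a coding gene for 38 of the 723 (5.26%), and 20 touched 2 or more lincRNA genes. The values were set beside those of 2 further sets, 15099 coding promoter regions, within 500 bp of a coding start, and 47730 distal regions, more than 1 kb from every annotated start of any gene.

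A lincRNA is a transcript longer than a small RNA that encodes no protein and comes from a gene lying between, rather than over, protein-coding genes. Most lincRNA genes are transcribed weakly and in few cell types, and few have a known function. Some act as nuclear scaffolds, some bind microRNAs or RNA-binding proteins, some are processed to microRNAs or to the small nucleolar RNAs (snoRNAs) that guide modification of ribosomal RNA, and at others the act of transcription affects a neighbouring gene. Promoters of broadly used genes often lie in DNA rich in CpG dinucleotides, and promoters and enhancers in use lose nucleosomes, which leaves the DNA accessible.

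The assay was ATAC-seq, which reads out accessible DNA by where a transposase can cut and tag it, on 1 group of 2 replicates. Each replicate was 50000 megakaryocytes, the cells that release platelets, from male adult C57BL/6J mice aged 5 to 6 weeks, with no treatment or mutation named. The replicates are separate biosamples under 1 donor record, so the spread between them may be technical. Fold enrichment is the deposited height of a peak over its background, given below as mean ± SD (n = 2 replicates), and no test between groups was possible. The deposited lists gave no read counts, so depth is unknown, and a promoter without a region was not detected at that depth. A check of the labelled cell type found a shared region within 500 bp of a start for 7 megakaryocyte genes (Itga2b, Itgb3, Pf4, Gata2, Fli1, Nfe2 and Vwf, 3.27-fold to 13.5-fold). No such region was found for 4 others, Gp9, Gp1bb, Gp6 and Tubb1. Regions were also found at 3 of 4 neutrophil genes (8.73-fold to 11.8-fold) and at 1 of 3 T cell genes (Cd3d, 14.7-fold), and at 0 of 3 hepatocyte and 0 of 3 neuronal genes. The part of other blood cells in the values below was not tested, and more cells with an open promoter cannot be told apart from a more open promoter per cell.

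The 3 highest lincRNA promoters were near-copies of each other on chromosome 17, at BC002059, Gm5165 and Gm6712. They are shown here because the sequence they have in common recurs within each of them. The stretches are chr17:16951427-16951597, chr17:17234744-17234914 and chr17:17294308-17294478 of GRCm38.p6 (RefSeq), each read on the plus strand, which is also the strand of the 3 genes. The annotation used here types all 3 as lincRNA, whereas RefSeq types Gm5165 and Gm6712 as protein coding and BC002059 as a non-coding RNA. Capitals mark TTCCGG, the core of an ETS factor site read on this strand.
BC002059: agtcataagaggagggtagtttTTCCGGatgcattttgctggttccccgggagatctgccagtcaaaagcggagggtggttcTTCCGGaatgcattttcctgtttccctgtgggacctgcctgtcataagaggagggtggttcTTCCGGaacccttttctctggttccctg
Gm5165: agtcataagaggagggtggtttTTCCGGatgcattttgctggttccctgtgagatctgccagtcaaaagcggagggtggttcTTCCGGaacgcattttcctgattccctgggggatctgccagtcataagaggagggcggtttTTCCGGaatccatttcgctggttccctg
Gm6712: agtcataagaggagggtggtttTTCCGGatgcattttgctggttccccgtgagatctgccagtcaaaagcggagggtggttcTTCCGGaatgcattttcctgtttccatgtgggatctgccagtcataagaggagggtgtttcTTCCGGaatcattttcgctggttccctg
In each copy the first and second TTCCGG start 60 bases apart and the second and the third 61 bases apart, and the words between them recur too, so each promoter holds 3 copies of a short repeat. The first TTCCGG began 90, 106 and 113 bases upstream of the annotated start in BC002059, Gm5165 and Gm6712, and the third began 31, 15 and 8 bases downstream of it. This word was chosen after the sequences had been seen. Of all 67991 shared regions, 94 (0.138%) held 3 or more TTCCGG on 1 strand in 300 bp around the summit, as did 3 of the 723 lincRNA promoters (0.415%). Those 3 are the copies shown, from which the word was taken, so the second share describes no other lincRNA promoter.

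The next sequences are of promoters to which the results return. Each is 150 bases around the summit, 5′ to 3′ on the plus strand of GRCm38.p6, and capitals mark the words searched as binding sites, on either strand. Snhg6 (chr1:9944086-9944235, gene on the minus strand) and 2900097C17Rik, known as Norad (chr2:156392912-156393061, minus), hold the ETS word CCGGAAG, and 1700020I14Rik, known as Cyrano (chr2:119594218-119594367, plus), holds CCAAT boxes and GC boxes. They stand for CpG-rich promoters of broadly used genes.
Snhg6: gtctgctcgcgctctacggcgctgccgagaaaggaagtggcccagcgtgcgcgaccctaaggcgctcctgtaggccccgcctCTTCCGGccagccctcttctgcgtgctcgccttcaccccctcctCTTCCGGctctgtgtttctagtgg
2900097C17Rik: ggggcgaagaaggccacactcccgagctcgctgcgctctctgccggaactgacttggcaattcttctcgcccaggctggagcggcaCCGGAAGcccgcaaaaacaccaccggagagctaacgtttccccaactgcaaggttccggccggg
1700020I14Rik: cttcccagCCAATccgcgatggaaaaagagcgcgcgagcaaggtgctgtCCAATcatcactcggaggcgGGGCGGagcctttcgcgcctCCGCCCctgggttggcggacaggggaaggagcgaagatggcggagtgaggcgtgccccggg
The others lie at genes listed below as blood and immune lincRNAs or as hosts of microRNAs, or beside a blood regulator. Pvt1 (chr15:62037900-62038049, plus) has the cyclic AMP response element TGACGTCA, Mir155hg (chr16:84703275-84703424, plus) has an AP-1/NF-E2 word followed by a TATA word, Mirt1 (chr19:53464804-53464953, minus) has an AP-1/NF-E2 word and the PU.1-type word AGAGGAAG on the other strand, and Gm33619 (chr10:21186819-21186968, plus) has the GATA word AGATAA on the other strand.
Pvt1: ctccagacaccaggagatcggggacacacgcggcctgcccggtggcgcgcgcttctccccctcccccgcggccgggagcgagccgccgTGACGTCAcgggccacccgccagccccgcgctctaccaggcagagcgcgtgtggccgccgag
Mir155hg: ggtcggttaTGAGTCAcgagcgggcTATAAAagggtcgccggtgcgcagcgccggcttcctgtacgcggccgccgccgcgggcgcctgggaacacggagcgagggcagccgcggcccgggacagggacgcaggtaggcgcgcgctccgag
Mirt1: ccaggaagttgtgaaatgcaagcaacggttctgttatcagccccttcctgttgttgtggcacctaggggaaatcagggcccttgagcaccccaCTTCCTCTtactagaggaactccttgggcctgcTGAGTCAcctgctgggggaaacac
Gm33619: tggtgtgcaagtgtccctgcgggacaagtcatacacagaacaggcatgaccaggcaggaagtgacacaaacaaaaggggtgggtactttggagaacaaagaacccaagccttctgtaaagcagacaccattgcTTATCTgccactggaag

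Most lincRNA genes had no open region at their start. A shared region lay within 500 bp of a start of 924 of 5209 lincRNA genes (17.7%), compared with 32.3% of all annotated genes and 60.6% of coding genes. Once regions near coding starts were set aside, 669 genes (12.8%) had a promoter region, or 13.7% of the 4867 genes with a start over 1 kb from coding starts. The 342 lincRNA genes without such a start had a shared region in 67.3% of cases. Among other classes of non-coding gene, a region was found at 29.4% of antisense genes, 48.1% of processed transcripts, 80.5% of genes at bidirectional promoters, 12.5% of sense intronic genes and 3.93% of processed pseudogenes. The lincRNA share was nearly the same in each replicate alone, 18.5% in replicate 1 and 18.99% in replicate 2. A region in replicate 1 alone was found for 57 lincRNA genes, and in replicate 2 alone for 81.

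The share of lincRNA genes with a promoter region was highest where the start was rich in CpG. Of 230 lincRNA genes with a CpG-rich start (at least 50% GC and an observed-to-expected CpG ratio of at least 0.6 in 500 bp), 110 (47.8%) had a region, compared with 559 of 4637 others (12.1%). The same split of coding genes gave 86.4% of 12049 and 25.2% of 8758. Genes with 1 annotated transcript had one in 11.2% of cases, genes with 2 in 21.1% and genes with 3 or more in 24.7%. A region at any start counted, and any CpG-rich start made a gene CpG-rich, so genes with more starts had more windows for both. The number of exons made little difference (14.3% for 1 exon, 14.3% for 2 and 13.4% for 3 or more). A host of a microRNA, snoRNA or scaRNA (a small Cajal body RNA) had a promoter region in 25 of 91 cases (27.5%), compared with 13.5% of genes that host none. These shares are counts of annotated genes and carry no test.

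**Figure D1:**
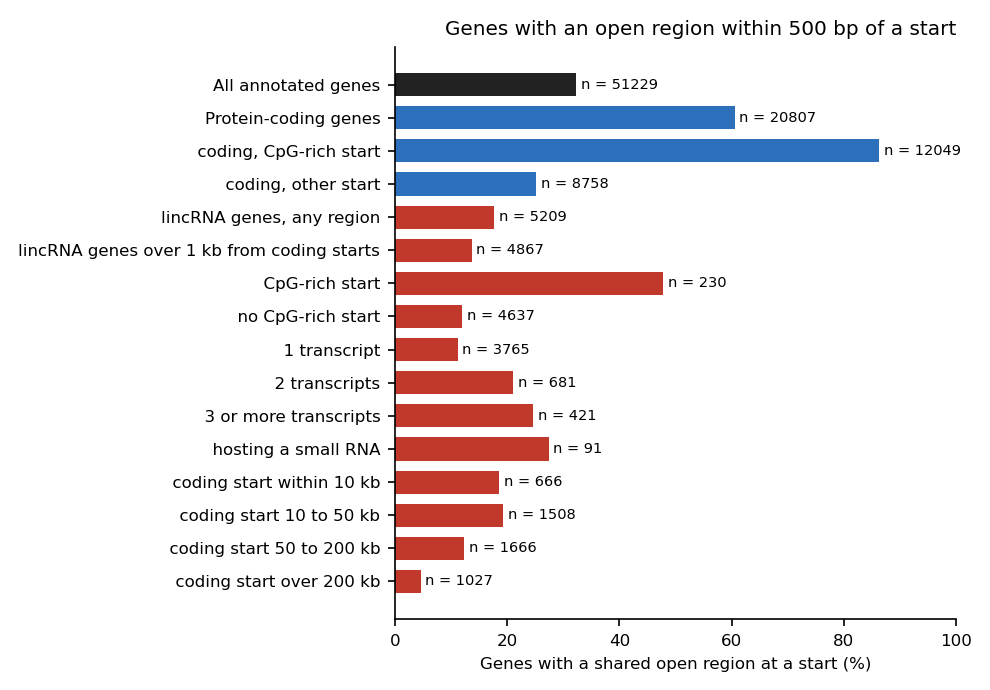
Horizontal bars give the percent of genes with an open region shared by both replicates within 500 bp of a start, with the number of genes beside each bar; black is all annotated genes, blue coding genes and red lincRNA genes, and from the second red bar on only regions over 1 kb from coding starts count. CpG-rich starts stand highest among the lincRNA classes (47.8%) and genes over 200 kb from a coding start lowest (4.58%).

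The share also differed with the position of the lincRNA gene relative to coding genes. A promoter region was found at 18.6% of the lincRNA genes within 10 kb of a coding start, 19.4% of those at 10 to 50 kb, 12.4% at 50 to 200 kb and 4.58% of the 1027 genes farther than 200 kb. Where the nearest coding gene itself had an open start, 535 of 3137 lincRNA genes (17.1%) had a region, compared with 134 of 1730 (7.75%) where it had none. The same order held within 50 kb of the coding start (23.3% and 11.1%) and beyond it (11.8% and 5.26%). By chromosome, the share was lowest on chromosome 8 (26 of 342 genes, 7.60%) and highest on chromosome 17 (43 of 231, 18.6%) and chromosome 10 (68 of 390, 17.4%), and chromosome 10 held the most promoter regions (70).

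The regions themselves sat close to the annotated starts. Of the 723, 474 (65.6%) overlapped a lincRNA start, 282 (39.0%) had their summit within 100 bp of it, and 451 (62.4%) had it upstream. The median summit lay 42 bp upstream of the start. The 5′ end of the gene was the start concerned for 651 regions (90.04%), and 72 lay only at internal starts. Of the 669 genes, 602 had 1 promoter region, 60 had 2 and 7 had 3. The nearest coding start was a median of 34.2 kb away (interquartile range 13.9 to 78.9 kb), 138 regions had one within 10 kb and 51 had none within 200 kb. The nearest coding gene had an open start for 580 regions (80.2%), and it lay on the strand opposite to the lincRNA for 358 (49.5%). Other shared regions within 25 kb numbered a median of 3, the same as for coding promoters and for distal regions, and 71 lincRNA promoters (9.82%) had none, compared with 8.73% of all shared regions.

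Signal at lincRNA promoters was intermediate. Their median fold enrichment was 8.10 (interquartile range 5.59 to 10.8, range 2.76 to 25.5), compared with 9.86 at coding promoters, 7.11 at distal regions and 7.51 over all shared regions. In replicate 1 the medians of the lincRNA, coding and distal sets were 7.70, 9.94 and 6.81, and in replicate 2 they were 8.18, 9.78 and 7.41, so the order was the same in each. The median of the lincRNA promoters fell at the 55.7 percentile of all shared regions, 174 of them lay at or below the 25th percentile of shared regions and 196 above the 75th. Median width was 551 bp, between 764 bp at coding promoters and 418 bp at distal regions. A conservative list called on the pooled replicates also held 632 of the 723 (87.4%), compared with 82.9% of all shared regions, and both replicates' stricter lists held 439 (60.7%), compared with 53.3%. Across the 723 regions, fold enrichment followed width with a Spearman rho of 0.501, the CpG ratio with 0.148 and the distance to the nearest coding start with 0.0144. These regions share their 2 libraries, and the coefficients are descriptions only.

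Few lincRNA promoters were rich in CpG, and their signal was set beside the other sets within each CpG class. CpG-rich regions made up 121 of the lincRNA promoters (16.7%), 65.0% of coding promoters, 1.70% of distal regions and 16.6% of all shared regions. At a stricter limit, a CpG ratio of 0.75 and 55% GC, the share of lincRNA promoters was 8.99%. Among CpG-poor regions, lincRNA promoters had a median of 7.70, coding promoters 7.53 and distal regions 7.10. Among CpG-rich regions the medians were 10.3, 11.2 and 8.02. Median widths, in the same order of sets, were 509 bp, 550 bp and 416 bp in CpG-poor regions and 749 bp, 871 bp and 550 bp in CpG-rich ones. Regions with the summit within 100 bp of the start had a median of 8.68, compared with 7.50 for those farther off, and 72 regions at internal starts had 6.72. The 138 regions within 10 kb of a coding start had a median of 6.93, and the groups at 10 to 50 kb, 50 to 200 kb and over 200 kb had 8.33, 8.13 and 8.12.

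**Figure D2:**
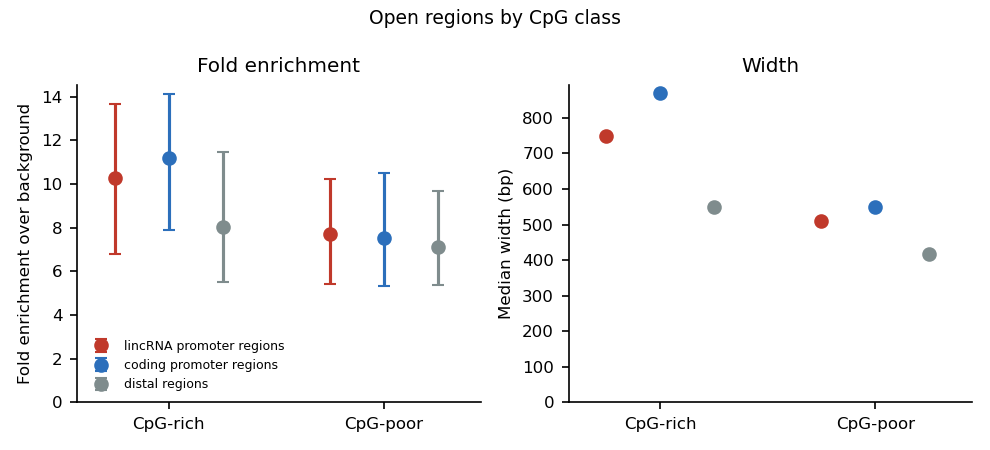
Left, points are median fold enrichments over background and bars their interquartile ranges; right, points are median widths in bp; red is lincRNA promoter regions, blue coding promoter regions and grey distal regions, each split into CpG-rich and CpG-poor. In CpG-poor regions the medians lie between 7.10 and 7.70, and in CpG-rich ones between 8.02 and 11.2.

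Values were close on either side of the 500 bp limit of the rule, and less so at the limit from coding starts. Regions 400 to 500 bp from a lincRNA start, just inside the rule, numbered 47 with a median of 6.19, and the 55 regions 500 to 600 bp away had 6.15. With a coding start 1.0 to 1.5 kb away, 8 regions were kept (median 5.21, 12.5% CpG-rich). Another 18 with one at 0.5 to 1.0 kb were dropped (median 5.94, 38.9% CpG-rich).

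The replicates gave close values at lincRNA promoters. On the log2 scale, replicate 2 exceeded replicate 1 by a median of 0.02 (SD over regions 0.23), compared with 0.05 (SD 0.24) over all shared regions, and 97.2% of the 723 lay within 1.5-fold. Pearson's r between replicates was 0.950 and Spearman's rho 0.940, across regions and not across samples. The 20 regions more than 1.5-fold apart were weak to moderate (3.79-fold to 8.50-fold), 15 higher in replicate 2 and 5 higher in replicate 1. Gm29590 had 2.65-fold in replicate 1 and 4.92-fold in replicate 2, Gm49735 had 4.44-fold and 7.95-fold, and Ifngas1 had 2.96-fold and 5.21-fold. In the other direction, Gm12907 had 6.39-fold in replicate 1 and 3.02-fold in replicate 2, 4930444F02Rik had 5.04-fold and 3.02-fold, and Gm4349 had 5.32-fold and 3.26-fold. With 2 replicates, none of these differences can be tested. Another 60 regions met the rule in replicate 1 alone and 91 in replicate 2 alone, with medians of 3.85 and 3.84.

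**Figure D3:**
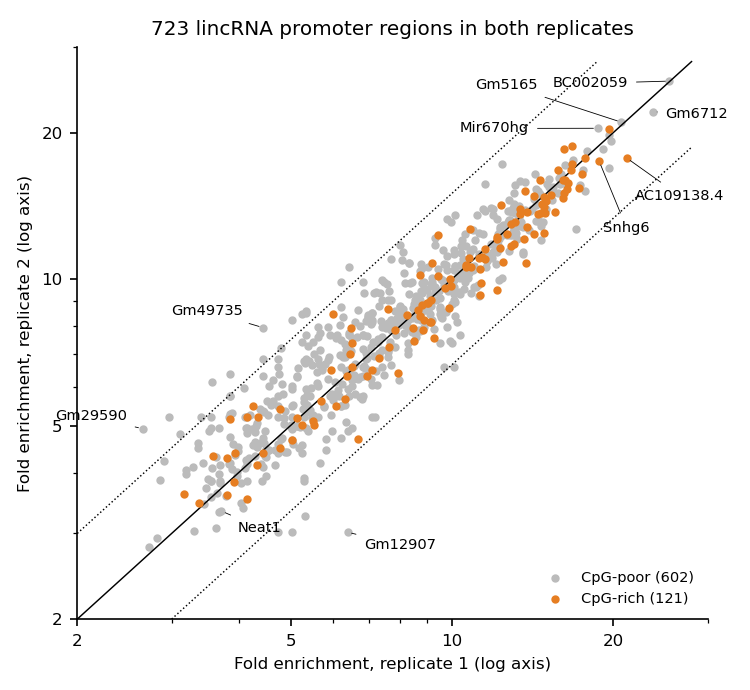
Each point is 1 of the 723 lincRNA promoter regions, with its fold enrichment in replicate 1 (x, log axis) and replicate 2 (y, log axis), orange for CpG-rich and grey for CpG-poor; the solid line marks equal values and the dotted lines 1.5-fold. Most points lie between the dotted lines, BC002059 stands highest in both replicates, and Gm12907, Gm29590 and Gm49735 lie outside the lines.

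The strongest promoters were a mixture of duplicated genes, small RNA hosts and genes with only systematic names. BC002059 had 25.5-fold in both replicates (25.5 ± 0.0486), and its neighbours Gm6712 (23.7 and 22.1) and Gm5165 (20.7 and 21.0) came next. These are the promoters whose repeats of TTCCGG are shown above. The fourth was Gm31812, with 19.6-fold and 20.3-fold (19.98 ± 0.502). It was followed by Gm12052 (19.7 ± 0.101), Mir670hg (19.6 ± 1.22), Gm13166 (19.5 ± 0.435), AC109138.4 (19.5 ± 2.45), Gm5444 (18.8 ± 0.452), AC110262.3 (18.3 ± 1.89), Snhg6 (18.1 ± 0.957) and Gm26510 (18.1 ± 0.343). AC109138.4 differed most between replicates among these 12, with 21.2-fold and 17.7-fold, and several of the replicate ranges of ranks 4 to 12 overlap, so neighbours in that order do not differ beyond their spread. Of these 12 regions 3 were CpG-rich (Gm31812, AC109138.4 and Snhg6). Those of Mir670hg and Gm13166 lay only at internal starts. At 15-fold or more there were 47 lincRNA promoters, of which 19 were CpG-rich and 30 had their summit within 100 bp of the start.

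The weakest and the widest regions lay at other genes. The 4 lowest values were at Gm33682 (2.76 ± 0.0618), Gm29264 (2.88 ± 0.0836), Gm12606 (3.17 ± 0.189) and a start common to 2310001H17Rik and Gm47861 (3.35 ± 0.394). Each of these lay near a coding gene with an open start, among them Yy1 (29.2 kb from Gm33682), Alox5ap (17.2 kb from Gm29264), which acts in leukotriene synthesis, and Cd69 (36.8 kb from 2310001H17Rik), a lymphocyte activation marker. This does not set them apart, since the nearest coding gene had an open start for 580 of all 723 lincRNA promoters (80.2%). The widest region, 2006 bp at G730013B05Rik, had 8.34-fold. Neat1, whose RNA builds the nuclear bodies called paraspeckles, was the second widest at 1831 bp and had 3.53-fold (3.72 in replicate 1 and 3.33 in replicate 2). Gm6410 (1680 bp), Gm807 (1619 bp) and Tmem250-ps (1554 bp) followed, with 8.20-fold, 8.55-fold and 9.96-fold.

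Several strong promoters were near-copies of one another. Windows of 300 bp were called similar at 80% identity over at least 200 bases, and 17 lincRNA promoters then fell into 6 families with a median of 13.8-fold (10.2-fold to 25.5-fold). The 3 copies on chromosome 17 were 92.8% to 95.5% identical and also resembled the promoter of the coding gene Zfp97. A family of 4 on chromosome 13 held E430024I08Rik (17.2 ± 0.577), Gm47469 (15.4 ± 0.0296), Gm46430 (13.3 ± 0.546) and Gm47467 (12.5 ± 1.56), with 87.5% to 91.2% identity, and resembled the promoters of Zfp825 and 2610044O15Rik8. Another family of 4 spread over 4 chromosomes: Gm20939 (16.5 ± 1.25), Gm32856 (14.4 ± 0.282), A430073D23Rik (13.8 ± 1.30) and Gm21814 (13.3 ± 0.280), with likeness to the promoter of Zfp932 and others. The 3 pairs were 9430037G07Rik with Gm26611 beside the Trim43 genes, Gm10825 with Gm26581, and Gm16386 with Gm5493. RefSeq types 6 of the 17 as protein coding: Gm5165, Gm6712, Gm46430, Gm20939, Gm32856 and Gm21814. Of the 17 regions, 15 had the CCAAT box of the factor NF-Y, found in 21.6% of lincRNA promoters and 22.7% of all shared regions. An ETS word was in 6 of the 17, set beside 7.47% and 4.97%. Near-copies have their words in common, so these are not counts of independent regions. Including likeness to shared regions of other classes, 34 lincRNA promoters had a similar window, and the share of their signal that came from reads fitting more than 1 copy was not tested. None of the 723 windows matched mitochondrial DNA.

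Abundant nuclear and housekeeping lincRNAs had a promoter region in 6 of 7 cases, set beside 12.8% of all lincRNA genes, at very different fold enrichments. This list and those below were chosen with earlier results of these data known. Cyrano (1700020I14Rik), which directs the decay of a microRNA, had 16.8-fold in replicate 1 and 17.2-fold in replicate 2. Norad (2900097C17Rik), which binds Pumilio proteins, had 17.5-fold and 16.5-fold over a narrow region of 306 bp. Epb41l4aos had 16.4-fold and 15.3-fold. Malat1, among the most abundant nuclear RNAs of mammals, had 6.95-fold and 6.31-fold at a region whose summit lay 947 bp upstream of the start. The region over the start had 5.78-fold and 5.46-fold. Lncpint, a p53-induced RNA, had 3 regions of 5.32 ± 0.281, 5.08 ± 0.181 and 4.17 ± 0.317. By fold enrichment these fell into an upper group of 3 genes above 15-fold in both replicates and a lower group of Malat1, Lncpint and Neat1 below 7-fold in both. The deposited −log10 p-values of the peaks did not split this way. Malat1 (64.7 and 58.5) was level with Norad (63.9 and 57.7), below Cyrano (117 and 131) and Epb41l4aos (103 and 110). The seventh gene, Rmrp, had an open region of 12.05-fold that lay too near a coding start to be counted.

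Hosts of snoRNAs had a promoter region in 3 of 5 cases, set beside 12.8% of all lincRNA genes. Snhg6, host of Snord87, had 18.8-fold in replicate 1 and 17.5-fold in replicate 2. Snhg12 had 13.7-fold and 10.8-fold at its main region, and a second region of 5.44 ± 0.199. Snhg20 had 12.3-fold and 11.6-fold. Snhg10 had an open region near a coding start (9.81-fold) and Snhg18 had none. All 3 main regions were CpG-rich, and the summits lay 43 bp or less from the start.

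The lincRNAs listed here as blood and immune were open in 6 of 6 cases, set beside 12.8% of all lincRNA genes. Of their 10 regions 9 were CpG-poor, as were 602 of all 723 lincRNA promoters. Mirt1, named for its induction after myocardial infarction, had 10.8-fold and 9.36-fold at one region and 8.72-fold and 9.06-fold at the region printed above. Pvt1, the neighbour of the Myc gene, had 7.59-fold and 8.70-fold at its 5′ end, where the cyclic AMP response element lies, and 9.36-fold and 9.04-fold at an internal start. Ptgs2os2, near the prostaglandin synthase gene Ptgs2, had 9.29-fold and 9.62-fold over 1419 bp. Trp53cor1, the lincRNA-p21 gene next to Cdkn1a, had 9.12-fold and 9.21-fold. Morrbid (Gm14005), which controls the death gene Bcl2l11 in short-lived myeloid cells, had 3 regions of 6.40 ± 0.0898, 5.13 ± 0.363 and 4.01 ± 0.232, and its middle region was 1074 bp wide. All 3 lay only at internal starts. Ifngas1, which lies near the interferon gamma gene, had 2.96-fold and 5.21-fold (4.09 ± 1.59). The values of Mirt1, Pvt1, Ptgs2os2 and Trp53cor1 ran from 7.59-fold to 10.8-fold, and both replicates of Ifngas1 and of every Gm14005 region lay below that range.

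Hosts of microRNAs had a promoter region in 4 of 8 cases, set beside 12.8% of all lincRNA genes. Mir670hg, which holds Mir670 and Mir129-2, had 18.7-fold in replicate 1 and 20.4-fold in replicate 2 at an internal start. Mir17hg, the primary transcript of the growth-promoting Mir17 to Mir92-1 cluster, had 9.10-fold and 8.15-fold. Mir155hg, whose microRNA is made by activated immune cells, had 8.72-fold and 10.2-fold just upstream of its start. The region over its TATA word had 6.07-fold and 5.49-fold, and an internal one had 3.56-fold and 6.14-fold. Mir142hg, host of a microRNA found mainly in blood cells, had 4.67-fold and 4.45-fold. Mir124-2hg, Mir124a-1hg and Mir9-3hg, hosts of microRNAs best known from neurons, had no region in either replicate, and C130071C03Rik had one in replicate 1 alone. Over all annotated hosts of small RNAs, 31 lincRNA promoters had a median of 9.82 (4.24-fold to 19.6-fold), compared with 7.96 at the 692 regions of genes that host none. They included the let-7 host 6720427I07Rik (12.5 ± 0.208 and 9.09 ± 0.0594), the Mir30d host Gm20732 (11.1 ± 0.139), the Mir31 host AL805899.1 (9.82 ± 0.192) and the Mir100, Mir125b-1 and Mirlet7a-2 host Gm49317 (8.12 ± 0.239). These 4 were named after their values had been seen. Of the 31 host regions, 17 were CpG-rich (median 11.9), set beside 121 of all 723 lincRNA promoters. Hosts and other genes were not compared within a CpG class.

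Developmental, neural and imprinted lincRNAs were open in 0 of 13 cases, set beside a share of 12.8% over all lincRNA genes, and neither replicate had a region at any of them. Among them were Bvht and Carmn of the heart and vessels, the imprinted H19, Halr1, Hotair and Hottip of the Hox clusters, Lhx1os and Lncenc1. The same list also holds genes of other types, and 5 of its 28 annotated genes had a shared region in both replicates. These were the antisense genes Kcnq1ot1 (12.2 ± 0.242), Nespas (7.08-fold and 6.12-fold, 77 bp from a coding start) and Airn (4.72 ± 1.16), Peg13, typed as sense intronic (8.89 ± 0.429), and the processed transcript Crnde (11.0 ± 0.716). Kcnq1ot1, Nespas, Airn and Peg13 lie in imprinted clusters. Of 20 lincRNAs named Platr, for their association with pluripotent cells, 3 had a promoter region (15%, near the 12.8% over all lincRNA genes): Platr1 (13.0-fold in replicate 1 and 13.99-fold in replicate 2), Platr26 (3.85-fold and 6.38-fold) and Platr27 (4.15-fold and 5.21-fold). Platr1 was above the median of all lincRNA promoters in both replicates, and the other 2 were below it in both. Platr23 had an open region near a coding start (13.5-fold). In the counts of lincRNA genes in each list, genes of other types, such as Tug1 and Gas5, were left out.

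**Figure D4:**
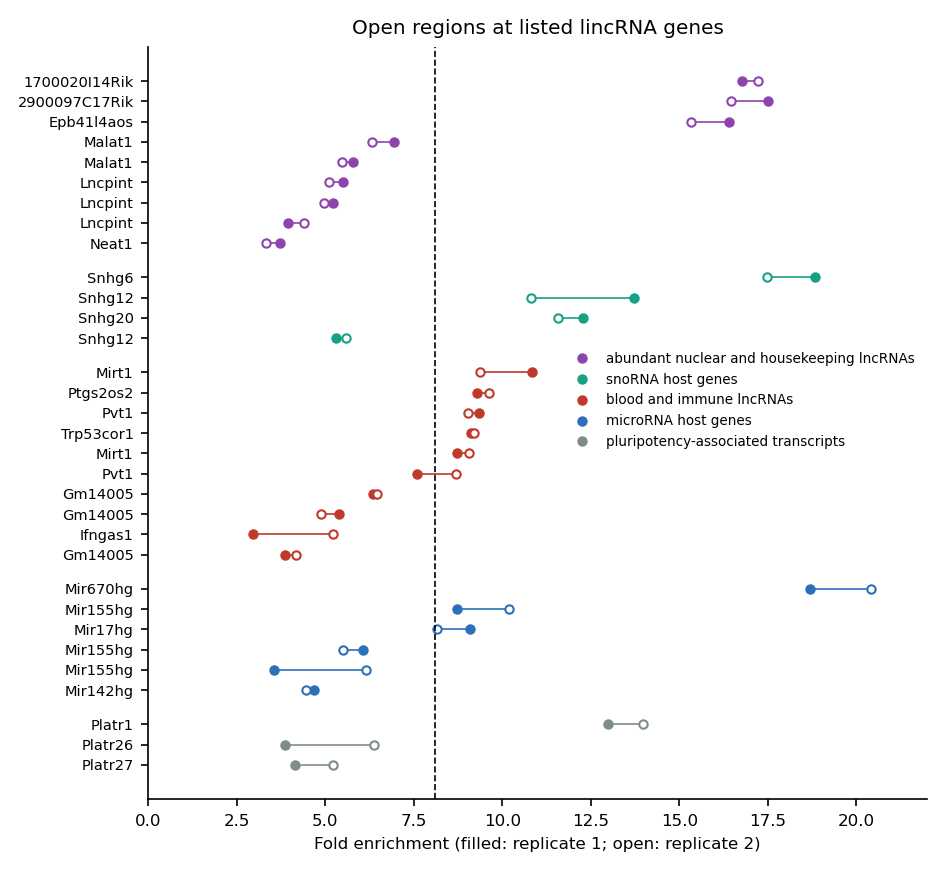
Each row is 1 promoter region of a listed lincRNA gene, with its fold enrichment in replicate 1 (filled) and replicate 2 (open), coloured by list; the dashed line is the median of the 723 lincRNA promoters (8.10). The values run from 2.96 (Ifngas1, replicate 1) to 20.4 (Mir670hg, replicate 2), and no developmental, neural or imprinted lincRNA is plotted because none had a region.

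Promoters of lincRNA genes beside coding regulators of blood made up a share close to that of other open regions. The nearest coding gene was 1 of 71 listed blood regulators within 100 kb for 9 of the 723 (1.24%), compared with 642 of 50784 shared regions over 1 kb from coding starts (1.26%), and the 9 had a median of 8.14. The highest was Gm26692, 35.6 kb from Gfi1, a transcriptional repressor of blood progenitors, with 14.6-fold in replicate 1 and 15.96-fold in replicate 2. Gm33619, whose GATA word is shown above, lay 25.7 kb from Myb, a regulator of progenitor growth, and had 10-fold and 7.38-fold. The Gm33619 region lay only at an internal start. Gm40608, also beside Myb, had 7.70-fold and 7.26-fold. The others were Gm14009 beside Bcl2l11 (8.70 ± 1.81 and 6.70 ± 0.499), Zfp469 beside Zfpm1 (8.28 ± 0.565), Pvt1 beside Myc, 4933411E08Rik beside Rap1b (7.001 ± 0.265) and Gm47507 beside Klf6 (5.91 ± 0.578). Zfp469 is typed as lincRNA by the annotation and as protein coding by RefSeq.

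Genes with 3 promoter regions each included D230017M19Rik, 23.9 kb or more from Mreg, at which 2 CpG-rich regions had 14.4 ± 1.01 and 14.04 ± 0.632 and the third, CpG-poor, had 6.11 ± 0.563. At Gm37800, near Hlx, the regions had 8.46 ± 0.0470, 4.73 ± 0.748 and 4.41 ± 0.217. All 3 held the AP-1/NF-E2 word, which was in 12.2% of lincRNA promoters and 9.16% of all shared regions. At Gm36723, more than 200 kb from the start of Id2, the regions had 9.57 ± 1.18, 5.03 ± 1.32 and 4.90 ± 0.727. Those of 2310001H17Rik had 6.40 ± 0.191, 3.75 ± 0.401 and 3.35 ± 0.394. The other 3 of the 7 genes with 3 regions, Gm14005, Lncpint and Mir155hg, are described above.

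Short words of known binding factors were searched on both strands within 100 bp of each summit. A match describes the letters only. Blood factors were represented by AGATAA for the GATA factors, CCGGAAG for the ETS factors, AGAGGAAG for the ETS factor PU.1, TGTGGT for the RUNX factors and TGANTCA for AP-1 and NF-E2. General promoter words were TGACGTCA for the cyclic AMP response element, GGGCGG for the GC box of SP and KLF factors, CCAAT for NF-Y, GCATGCGC for NRF1, ATGGCGGC for YY1, AGGGGGCGC for CTCF and TATAAA for the box of that name. No word contains another, and TTCCGG above is part of the ETS word read on the other strand. For 10 of the 12 words the share in lincRNA promoters lay between those of coding promoters and distal regions, and 221 regions (30.6%) held none of them. The GC box was in 19.6% of lincRNA promoters, 53.6% of coding promoters, 7.08% of distal regions and 18.1% of all shared regions. The ETS word was in 7.47%, 13.4%, 2.41% and 4.97%. The RUNX word, a site of factors that act in megakaryocytes, was in 19.1%, 10.8%, 25.6% and 21.97%, and the GATA word in 6.22%, 3.58%, 9.19% and 7.84%. The AP-1/NF-E2 word, which the megakaryocyte factor NF-E2 can bind, was outside the range of both, with 12.2%, 4.39%, 10.6% and 9.16%. Among CpG-poor regions it was in 13.6% of lincRNA promoters, 8.09% of coding promoters and 10.7% of distal regions. The CTCF word was in 1.11%, 2.25%, 1.29% and 1.54%, which for the lincRNA promoters is 8 regions. In CpG-rich regions the GC box was in 63.6% of lincRNA promoters and 69.6% of coding promoters, and the ETS word in 17.4% and 17.96%. In CpG-poor regions the GC box was in 10.8% of lincRNA promoters and 23.9% of coding promoters, and the ETS word in 5.48% and 4.93%. Regions with an ETS word had a median of 10.8-fold and those without 7.81-fold, whereas regions with a GATA word had 6.25-fold and those without 8.13-fold.

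**Figure D5:**
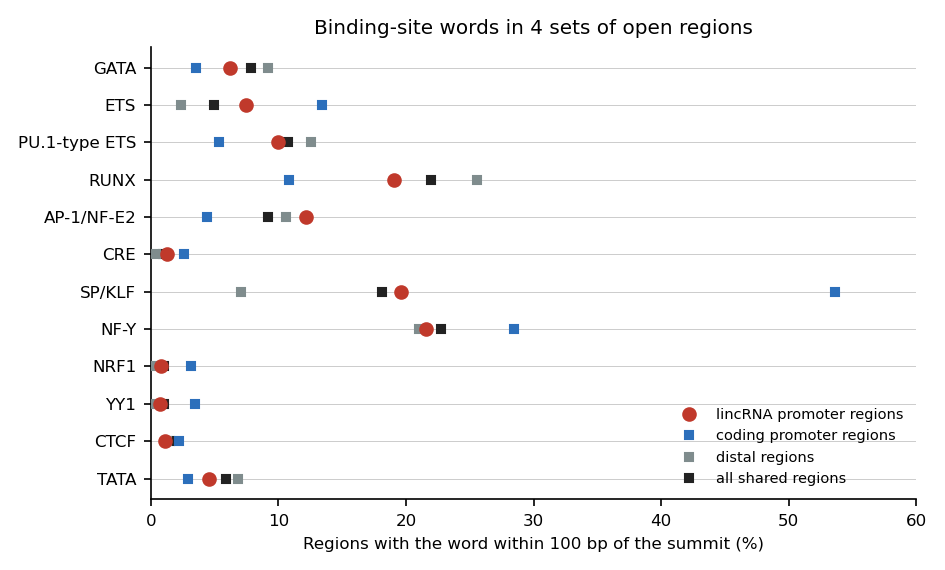
Points give the percent of regions with each word within 100 bp of the summit (x) for 12 words (y), with a red circle for lincRNA promoter regions and squares for coding promoters (blue), distal regions (grey) and all shared regions (black). The red circle lies between the blue and grey squares for every word but AP-1/NF-E2 (12.2%) and CTCF (1.11%).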

How the data were processed

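Peak lists of 2 ATAC-seq replicates were used as deposited, on the genome build mm10 per the labels. The aligner and the peak caller are not given in the sources used here. In the lists deposited by the authors, column 7 was read as fold enrichment, a ratio, and column 8 as the −log10 p-value of each peak, following the peak format. The deposited pseudoreplicated lists held 108778 and 114523 peaks (largest p 0.00997), and 0 columns were left unmapped. Depth is unknown because no read counts were used.

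Overlapping peaks of a replicate were merged, keeping the highest fold enrichment and its summit, and a shared region was the union of merged regions overlapping by at least 1 bp. Gene types and starts came from GENCODE M21, sequence from RefSeq GRCm38.p6, and similar windows from blastn 2.17.0. Python 3.11.15, numpy 2.4.6, scipy 1.17.1, matplotlib 3.10.9 and samtools 1.23.1 were used. On simulated data of 20000 regions, 100% of planted promoter regions were recovered. Named regions were the 12 highest, 4 lowest and 5 widest, the 3 largest replicate ratios in each direction, 5 of the 7 genes tied for most regions, listed lincRNA genes (up to 8 per list without a region) and the neighbours of listed blood regulators. Some items are not reported here. Regions and lists were chosen with earlier results of these data known. Alternatives were other peak lists, overlaps, windows and starts, and each replicate left out.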

Additional observations from a re-analysis of the deposited data

Results flagged for a closer look

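A list of replicated peaks called on the pooled replicates, which the comparisons above do not use, held signal at further lincRNA genes. It had a region within 500 bp of a start of 1099 lincRNA genes, and 82 of these had no region in the list of either replicate. Their pooled fold enrichments had a median of 3.52 and ran from 2.07 to 17.5, with the highest at 4931407E12Rik on chromosome 14 (17.5), Gm45282 on chromosome 7 (13.1) and Gm35215 on chromosome 13 (9.19). These are the authors' pooled values, with no SD.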

How the results depend on the processing

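The number of lincRNA promoter regions stayed within 1.5 times of 723 under every alternative but the stricter list of each replicate (IDR, the irreproducible discovery rate), which left 439. Leaving out a replicate gave 792 to 816 regions. No paired analysis was possible because the series has 1 group. Shares and medians are called moved where they shifted by more than the SD between the replicates alone (0.231 percentage points, 0.209-fold and 0.323 percentage points).

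The share of lincRNA genes with a promoter region (12.8%) was 8.24% with the IDR lists, 15.9% with the pooled replicated list, 11.5% with the pooled conservative list, 12.1% with 50% overlap, 11.8% with peaks of at least 4-fold, 16.1% within 1 kb of starts, 9.85% within 100 bp, 11.8% over 5 kb from coding starts, 11.9985% with the 5′ end as the only start, and 13.6% to 13.96% with 1 replicate left out. The median fold enrichment (8.10) was 9.87, 7.13 and 9.23 with the 3 other lists in that order, 8.46 with peaks of at least 4-fold, 7.67 within 1 kb, 8.36 within 100 bp, 7.26 to 7.55 with 1 replicate left out, and 7.85 without regions similar to another shared region, an alternative chosen after seeing the data. The CpG-rich share (16.7%) was 20.5%, 13.4% and 17.3% with the 3 other lists, 17.2% with 50% overlap, 17.3% with 4-fold peaks, 13.7% within 1 kb, 20.4% within 100 bp, 16.1% over 5 kb from coding starts, 15.1% to 15.5% with 1 replicate left out, 20.1% in 200 bp around the summit, and 8.99% at a CpG ratio of 0.75 and 55% GC. Ranked by −log10 p, the median lay at the 56.5 percentile in place of 55.7. Without the genes that RefSeq types as protein coding, also added later, the share of genes was 12.6%. Counting coding starts from coding transcripts alone, also added later, gave 729 regions and moved no share or median beyond that spread. Of the 74 named regions, 27 were not in both IDR lists, and the pooled lists moved 34 values each. The unknown depth limits every statement on a promoter without a region.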

Other observations

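Chromosome X was outside the rule, and the same search there found 12 lincRNA promoter regions among 1548 shared regions (0.775%), at 9 of 96 lincRNA genes. Their median was 8.20-fold, compared with 8.15-fold for all shared regions on X. The highest lay at Jpx, a gene of the X-inactivation centre, with 18.2-fold in replicate 1 and 16.3-fold in replicate 2. Ftx, its neighbour in that centre, had 4 regions of 14.2 ± 1.46, 12.2 ± 0.472, 5.16 ± 0.0421 and 4.10 ± 0.370 (SD, n = 2). Gm26652 followed with 9.93 ± 0.891 and Gm1720 with 9.42 ± 1.14. Both replicates come from male mice.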
